A study of Mus musculus with 4 samples.

Results

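The genes described here encode 7 subunits of the channels that carry sodium, calcium and pacemaker current: Scn4b, Hcn2, Hcn4, Cacna1c, Cacnb2, Cacna1g and Cacna1h. They were taken by gene symbol from the annotation of the array platform, which gave each of them 1 probe set, and they are 7 of the 19505 genes measured. The series asked how heart expression differs after a viral vector carrying Tbx6, a T-box transcription factor of the embryonic mesoderm, has been given to newborn mice. Mice of the outbred ICR (Jcl:ICR) stock received 5 μl of vector preparation or of phosphate-buffered saline (PBS) under the skin of the back at postnatal day 1, and hearts were taken 7 or 30 days later. Each of the 4 groups (PBS 7d, Tbx6 7d, PBS 30d and Tbx6 30d) was measured on 1 Clariom S array, so that no group has a replicate. Control mice received PBS rather than an empty vector. The sources used here do not give the promoter that drives Tbx6, how many hearts went into an RNA sample, the sex or the litter. The protocol gives an injection under the skin, although other fields of the labels describe delivery to the heart.

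Voltage-gated sodium channels open the upstroke of the action potential in working heart muscle, and small beta subunits such as that of Scn4b modify their gating. L-type calcium channels, whose pore is formed in the heart mainly by the product of Cacna1c and carried to the membrane with a beta subunit such as that of Cacnb2, bring in the calcium that starts contraction. T-type calcium channels (Cacna1g and Cacna1h) open at more negative voltages, and the HCN channels (Hcn2 and Hcn4) open on hyperpolarisation and carry the pacemaker current. Both of these groups are known from the embryonic heart, and in the adult mostly from the sinus node and the conduction system.

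Values are given on the log2 scale as deposited, on which a difference of 1 is a factor of 2. A reading at or below the highest of the 23 background probe sets of its array (5.77 to 6.05) is called at background. Where 1 of a pair of readings is at background, the difference is given as a bound, computed with that array's background maximum in its place. Heart muscle markers were far above background on every array, Pln at 19.83 and Myh6 at 19.75 to 19.93, close to the top of the scale (19.93). The Tbx6 probe set was at background on all 4 arrays (3.57 to 4.14) and so does not check the labels. Over all genes tested below, the median absolute log2 difference between the Tbx6 and PBS arrays was 0.26 at day 7 and 0.24 at day 30. The PBS array of day 7 stood apart from the others in some markers of other tissues. The airway secretory genes Scgb1a1 and Scgb3a1 read 12.89 and 10.80 there and were at background on the other arrays, and Ucp1, the uncoupling protein of brown fat, read 11.92 there against 7.60, 5.69 and 8.34 on the Tbx6 array of day 7 and the PBS and Tbx6 arrays of day 30. For the changes between days, values without this array are given where it matters, from fits to the 3 other arrays. Fits with an array left out have day as the only term, while the main fit also has injection. A difference between injections at day 7 has no value without it.

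Between day 7 and day 30 the sodium channel subunit gene Scn4b and the pacemaker channel gene Hcn2 rose, and the T-type calcium channel gene Cacna1g fell. The L-type genes Cacna1c and Cacnb2 were not called, and Hcn4 and Cacna1h were at background on all 4 arrays. Of the 7 genes, 6 passed the filter on low values (a mean at or above 5.30), and of these 2 rose, 1 fell and 3 were not called. Scn4b, counted as rising, passed the filter only through its readings of day 30, as those of day 7 were at background. The test was limma's, on an additive model of day and injection over 9753 genes with a threshold of 0.05 on the Benjamini-Hochberg adjusted p. The same test called 26.3% of all 9753 genes, with 14.2% rising and 12.1% falling, so changes with age were common on these arrays. The median change over the 6 genes was 0.14, against -0.02 over all genes tested. This model leaves 1 residual degree of freedom, so each standard error (SE) rests mostly on the variance of other genes. A heart is taken once, so the 4 arrays come from different mice, but no group has a second array. The p-values rest on how far the change between days differed between the injections. In that spread, differences between mice, technical differences and an injection effect that changes with day cannot be told apart.

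**Figure D1:**
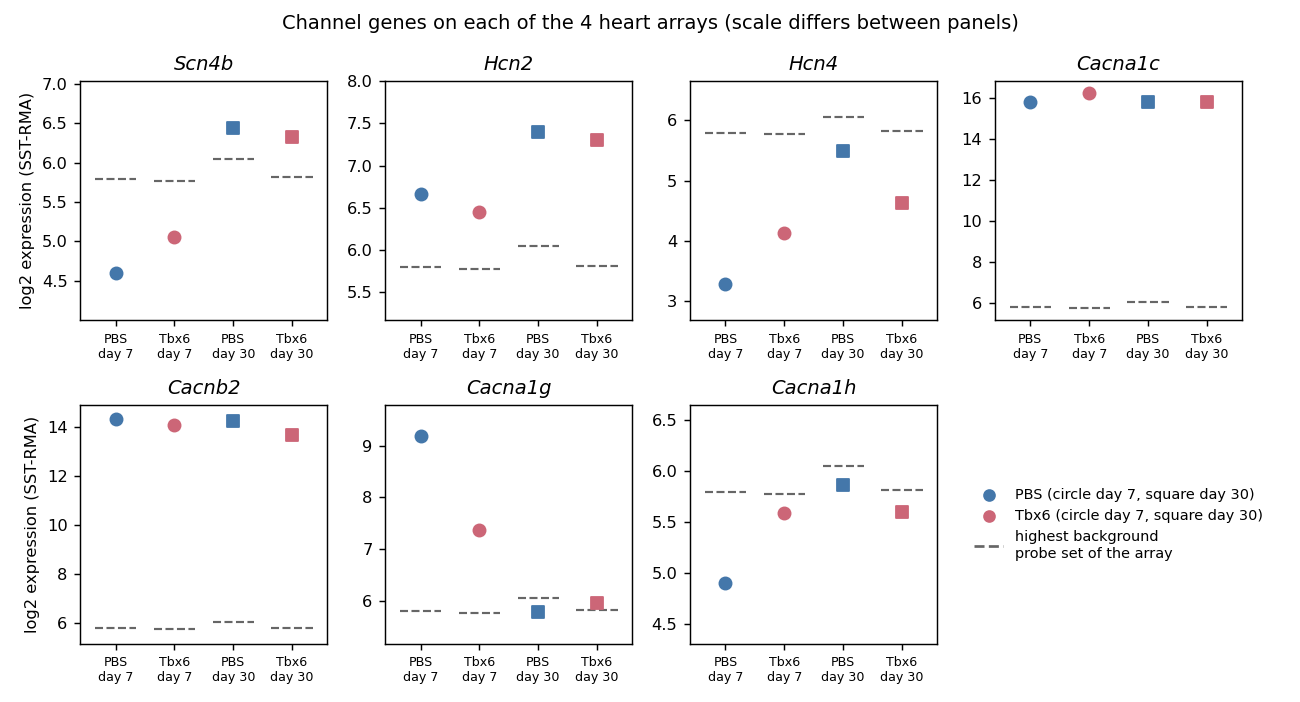
Log2 expression (vertical axis) of the 7 channel genes on each of the 4 arrays (horizontal axis), with the highest background probe set of each array as a dashed line and a separate scale in each panel. Scn4b lies above its background line only at day 30, Hcn4 and Cacna1h lie below it on all 4 arrays, and Cacna1g is highest on the PBS array of day 7.

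Scn4b encodes the beta-4 subunit, which pairs with the pore-forming sodium channel and modifies its gating. At day 7 it read 4.60 with PBS and 5.05 with Tbx6, both at background, and at day 30 it read 6.43 and 6.32, both above background. The arrays of the different days did not overlap, which was the case for 66.2% of all genes tested (day 30 above in 32.7% and below in 33.5%), and the lower reading of day 30 lay 1.27 above the higher reading of day 7. On the deposited values Scn4b rose by 1.55 (SE 0.26, 95% interval 0.95 to 2.14, adjusted p = 0.0038 by limma). It passed the filter on low values only through day 30, as its mean was 4.83 at day 7 and 6.38 at day 30. The interval and the p therefore rest on day 7 readings that measure no level. Because both readings of day 7 were at background, the size of the rise is a bound, at least 0.64 after PBS and at least 0.55 after Tbx6. With all readings raised to background the mean change was 0.59 and the call was lost (adjusted p = 0.0667 by limma). Without the PBS array of day 7, and with day as the only term, the rise was 1.33 (adjusted p = 0.0125 by limma).

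Hcn2, the HCN channel of ventricular muscle and of many neurons, was above background on every array. Its day 7 readings were 6.67 with PBS and 6.45 with Tbx6, and its day 30 readings were 7.40 and 7.30. The readings of day 30 were the higher ones after either injection, by 0.74 after PBS and 0.85 after Tbx6, and the days did not overlap. The rise was 0.79 (SE 0.24, 95% interval 0.24 to 1.35), a factor of 1.73, with an adjusted p of 0.0431 by limma. This call was close to the threshold. With day as the only term it held on all 4 arrays (adjusted p = 0.0344 by limma), and in the same model it was lost when any 1 array was left out, with the change then at 0.69 to 0.90 and adjusted p at 0.0533 to 0.138 by limma. It was also lost without the filter on low values (adjusted p = 0.0803) and with an intensity trend in limma (adjusted p = 0.0502).

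Hcn4, the main HCN channel of the sinus node, read 3.29 and 4.14 at day 7 after PBS and Tbx6, and 5.49 and 4.63 at day 30. All 4 readings were at background, the gene did not pass the filter, and no difference is given for it. The sinus node is a small part of the whole heart, and the readings show only that Hcn4 was not measurable in this RNA with this probe set. Of the other HCN genes Hcn3 was measured and was at background on all 4 arrays. Other genes known from the node differed in level. Shox2 and Isl1, transcription factors of the sinus node, were at background on every array, Tbx3, the T-box repressor of the conduction system, was above it on 1 array of 4 and Tbx18 on 3, and the connexin gene Gjc1 was above it on all 4 (8.57 to 10.36).

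The sequences before the start sites of the 2 genes that rose are shown so that their letters can be read beside the change. They are the 250 bases before the RefSeq start (GRCm38.p6), 5′ to 3′ on the gene's strand, with matches to the motifs searched in capitals. Scn4b lies at chr9:45138374-45138623 (+ strand) and Hcn2 at chr10:79716384-79716633 (+ strand).
Scn4b: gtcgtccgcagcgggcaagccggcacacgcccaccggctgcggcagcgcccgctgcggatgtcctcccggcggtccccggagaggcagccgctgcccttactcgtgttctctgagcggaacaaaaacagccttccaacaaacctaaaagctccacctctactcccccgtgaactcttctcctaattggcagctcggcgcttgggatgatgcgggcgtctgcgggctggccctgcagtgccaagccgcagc
Hcn2: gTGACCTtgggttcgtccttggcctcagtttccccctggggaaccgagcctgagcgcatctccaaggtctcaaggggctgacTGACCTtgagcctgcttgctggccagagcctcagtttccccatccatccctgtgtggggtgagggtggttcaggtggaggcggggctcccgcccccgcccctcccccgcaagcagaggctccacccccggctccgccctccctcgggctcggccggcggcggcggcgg
Both strands were searched. The T-box motif was spelled GGTGTGA, which contains the shorter T-box core, spelled GGTGTG. The GATA motif was spelled AGATAA and the MEF2 motif was spelled TAAAAAT. The E-box was spelled CAGCTG and the nuclear receptor half-site was spelled AGGTCA. The Hcn2 window held AGGTCA at 2 places, both on the opposite strand (TGACCT), starting 249 and 168 bases before the start. This motif occurs in 14% of the 32851 windows of the same length in the RefSeq table, so its presence is common. The Scn4b window held none of the letters searched. Windows were found for 5 of the 7 genes, 8 in all since Cacna1c has 3 start sites and Cacnb2 has 2. Neither T-box motif was found in any of the 8, where GGTGTGA occurs in 3.33% and GGTGTG in 16.3% of all windows. The E-box CAGCTG, found in 13% of all windows, occurred once before each start of Cacnb2. The windows of Scn4b and Hcn2 were rich in G and C (66% and 70.4%), against a median of 52.4% over all windows. High shares were not limited to the genes that rose. The Hcn4 window held 71.2%, those of Cacnb2 73.2% and 46%, and those of Cacna1c 51.6%, 82.8% and 50.4%. These matches describe the letters only.

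Cacna1c, which encodes the pore of the L-type channel, had day 7 readings of 15.78 with PBS and 16.20 with Tbx6, and read 15.79 on both arrays of day 30. The highest reading was that of Tbx6 at day 7, and the readings of day 30 lay between those of day 7. The change between days was -0.20 (SE 0.25, 95% interval -0.78 to 0.37, adjusted p = 0.589 by limma). The interval is wide on either side of 0, so the test does not show that the level was the same. Quantile normalisation, which forces the arrays to 1 distribution, gives -0.49 (adjusted p = 0.187 by limma), also not called.

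Cacnb2, whose product chaperones the L-type pore to the membrane, read 14.32 and 14.10 at day 7 after PBS and Tbx6, and 14.27 and 13.69 at day 30. The Tbx6 array of day 30 was the lowest of the 4, and the days overlapped. The change between days was -0.23 (SE 0.25, 95% interval -0.80 to 0.34, adjusted p = 0.524 by limma). The probe set does not tell transcripts from the 2 start sites apart.

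Cacna1g, which encodes the T-type pore known as alpha-1G, was at 9.19 with PBS and 7.37 with Tbx6 at day 7. At day 30 it read 5.79 after PBS, at background, and 5.97 after Tbx6, just above the background of 5.82. The PBS array of day 7 was the highest by a wide margin, and both arrays of day 7 were above both of day 30. Cacna1g fell by 2.41 (SE 0.42, 95% interval -3.37 to -1.44, adjusted p = 0.00454 by limma), a factor of 5.3 on the deposited values. After PBS the log2 change was a bound, -3.14 or lower, and after Tbx6 the fall was 2.65-fold. After Tbx6, where both readings were above background, 4.52% of all 9753 genes were as far below day 7 or farther.

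Cacna1g was also lower at day 30 without the PBS array of day 7, although the size of the fall rested on that array. Without it the fall was smaller (log2 change -1.49), and without the Tbx6 array of day 7 it was larger (log2 change -3.32). Each of these fits leaves 1 array at day 7. Their only spread within a day is between the day 30 readings, 1 at background and 1 just above it, so variation at day 7 is not measured. The call was lost when either array of day 30 was left out, with a log2 change of -2.32 (adjusted p = 0.0627) without the PBS array and of -2.50 (adjusted p = 0.0541) without the Tbx6 array. In RNA of whole hearts, fewer cells of a type and less RNA per cell cannot be told apart.

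Cacna1h, which encodes the T-type pore known as alpha-1H, read 4.91 and 5.59 at day 7 after PBS and Tbx6, and 5.86 and 5.60 at day 30. All 4 readings were at background, so no difference is given, although its mean passed the filter and the fit did not call it (adjusted p = 0.257 by limma).

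Within each injection the days were also set side by side as single arrays. After PBS, Hcn2 was 1.67-fold higher at day 30, Scn4b at least 1.55-fold higher and Cacna1g at least 8.84-fold lower, while Cacna1c and Cacnb2 differed by less than 1.5-fold. After Tbx6, Hcn2 was 1.80-fold higher and Cacna1g 2.65-fold lower, the bound for Scn4b was 1.47-fold higher, and Cacna1c and Cacnb2 again differed by less than 1.5-fold. Of all genes tested, 43.4% differed by 1.5-fold after PBS (21.9% higher and 21.5% lower) and 44.1% after Tbx6 (22.9% higher and 21.2% lower). These shares, and those given for the injections, count deposited values whether or not a reading was above background.

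Tbx6 was set against PBS at each day as a difference between 2 single arrays, which has no replicate check and no p-value. At day 7 Cacna1g was lower after Tbx6, with a log2 difference of -1.83, a factor of 3.54. This difference rests wholly on the PBS array with the high airway and Ucp1 readings, and no other array can take its place. Of all 9753 genes, 19 (0.195%) were as far below PBS or farther. The other 3 genes with both readings of day 7 above background differed by less than 1.5-fold, Hcn2 by -0.21, Cacna1c by 0.42 and Cacnb2 by -0.22. Thus 1 of 4 measurable genes was at least 1.5-fold apart at day 7, where 15.6% of all genes tested were (7.23% higher and 8.41% lower). Scn4b, Hcn4 and Cacna1h were at background on both arrays.

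At day 30 none of the 4 genes with both readings above background (Scn4b, Hcn2, Cacna1c and Cacnb2) differed by 1.5-fold, where 13.2% of all genes tested did (7.13% higher and 6.06% lower). Cacnb2 came closest, with -0.57 (a factor of 1.49), and 6.41% of all genes were as far below PBS or farther. Scn4b differed by -0.11, Hcn2 by -0.10 and Cacna1c by -0.01. For Cacna1g the PBS reading was at background and no bound was left, so the difference of day 7 was not seen again on the pair of day 30, where the gene was near background after either injection. Whether the difference between injections changed with day could not be tested with 1 array in each group.

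**Figure D2:**
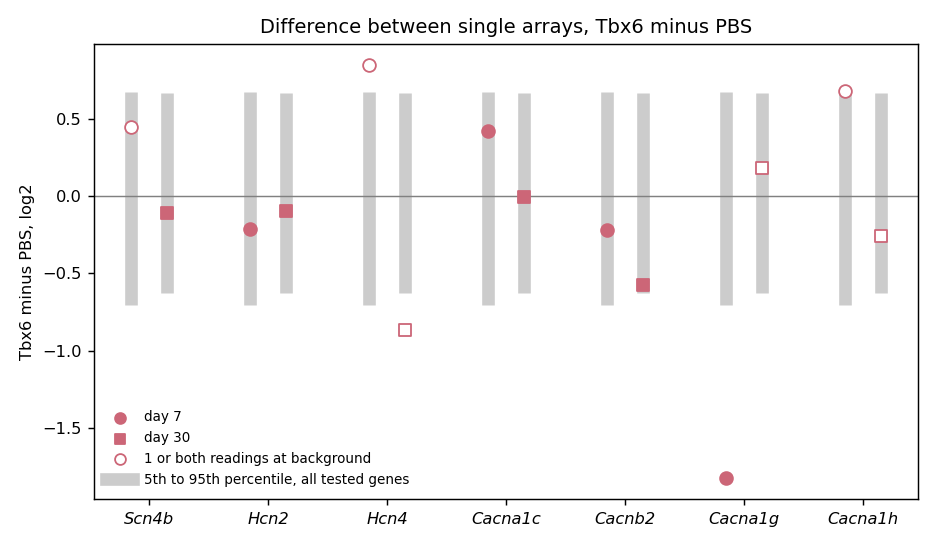
Log2 difference of Tbx6 minus PBS (vertical axis) for each of the 7 genes, circles for day 7 and squares for day 30, over grey bars that span the 5th to 95th percentile of all 9753 genes. Open symbols have 1 or both readings at background and measure no difference. Of the filled symbols, Cacna1g at day 7 (-1.83) alone lies outside its bar.

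Over both days together limma called 0 of the 9753 genes for injection, of which 421 (4.32%) had an unadjusted p under 0.05, and none of the 6 channel genes tested was among these. The estimate for Cacna1g was -0.82 (SE 0.42, 95% interval -1.78 to 0.14, unadjusted p = 0.0845 by limma). That for Cacnb2 was -0.40 (SE 0.25, 95% interval -0.97 to 0.17), lower after Tbx6 on both days. For Cacna1c the estimate was 0.21 (SE 0.25) and for Hcn2 it was -0.16 (SE 0.24), and the adjusted p of all 6 genes was 1.

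The high Cacna1g reading on the PBS array of day 7 was compared with other genes on the same 4 arrays. Among 7736 genes above background on every array, those with the most similar profile, by the root mean square difference of the 4 readings after each gene's mean was taken away, were Osr1 (0.20), a zinc finger transcription factor of the intermediate mesoderm, Alas2 (0.21), the haem synthesis enzyme of red blood cell precursors, and Pde4b (0.34), a phosphodiesterase that breaks down cyclic AMP. Alas2 read 12.52 and 10.73 at day 7 after PBS and Tbx6, and 9.24 and 9.82 at day 30. None of the 7736 genes was within 0.10 of the profile of Cacna1g. Predicted genes and genes with clone names had been left out of them. The profiles were not scaled, so genes with large changes tend to have fewer others within a fixed distance. Scgb1a1, Scgb3a1 and Ucp1 were also highest on the PBS array of day 7, while Adipoq, the fat hormone gene, was highest with Tbx6 at day 30 (9.83, against 7.98 and 6.08 with PBS and Tbx6 at day 7 and 7.49 with PBS at day 30). Of 6 lung epithelial markers 3 were at background on all 4 arrays, and the mean log2 level of the list was 7.13 and 3.87 at day 7 with PBS and Tbx6 and 3.86 and 4.44 at day 30. Of 6 adipocyte markers 2 were at background throughout, and the mean was 8.89 and 7.45 at day 7 and 7.28 and 8.79 at day 30. The part of these tissues in the Cacna1g reading was not tested.

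**Figure D3:**
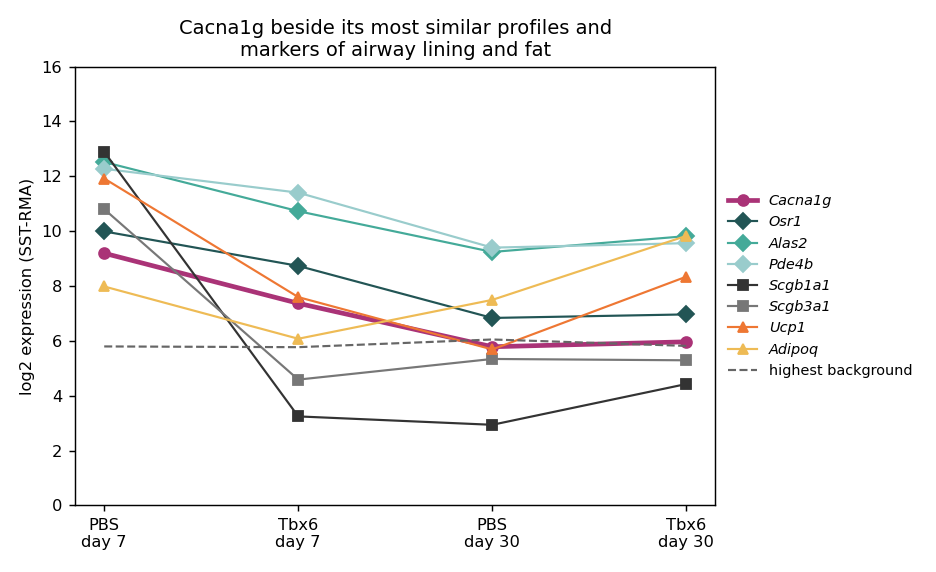
Log2 expression (vertical axis) of Cacna1g, of the 3 genes with the most similar profile and of 4 markers of airway lining (Scgb1a1, Scgb3a1) and fat (Ucp1, Adipoq) on the 4 arrays (horizontal axis), with lines only to guide the eye. Cacna1g, Osr1, Alas2 and Pde4b are highest on the PBS array of day 7 and stand between it and day 30 on the Tbx6 array of day 7, while Scgb1a1 and Scgb3a1 exceed background only in the day 7 PBS sample.

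For the other members above background, genes of closely similar profile are named as a description only. Their numbers also depend on the size of each member's changes. Within 0.10 of Scn4b were 12 of 7736 genes, led by Gpx4 (0.06), a peroxidase that protects membrane lipids, Bag3 (0.07), a cochaperone of the heart's Z-disc, and Ldhb (0.07), the heart form of lactate dehydrogenase. Gpx4 read 12.34 and 12.94 at day 7 and 14.25 and 14.14 at day 30, while the readings of Scn4b at day 7 were at background. Within 0.10 of Hcn2 were 121 of 7735 genes, led by Ago3 (0.01), Chchd3 (0.02), a protein of the mitochondrial cristae, and Mpp6 (0.02). For Cacna1c there were 167, led by Nck1, Zfp113 and Mcts1 (0.03 to 0.04), and for Cacnb2 there were 58, led by Get4, Tomm20 and Flnc (0.02 to 0.03), of which Flnc encodes a filamin of muscle.

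Among the other subunits of these channel families, 31 were measured, of which 25 were at background on all 4 arrays. Of the 8 past the filter, 1 rose, 0 fell and 7 were not called, where 14.2% of all genes tested rose and 12.1% fell. The one that rose was Cacna2d1, the alpha2-delta subunit that accompanies the L-type pore and sets its density at the membrane. It read 9.10 and 8.89 at day 7 after PBS and Tbx6, and 10.64 and 10.41 at day 30, a rise of 1.54 (SE 0.24, adjusted p = 0.00274 by limma). Its days did not overlap, and its injections differed by -0.21 and -0.23, so that this subunit was higher at day 30 beside a pore and a beta subunit that were not called. In the sodium channel family Scn7a, a sodium-sensing channel of glia and other non-muscle cells, read 10.80 and 11.00 at day 7 and 11.25 and 11.62 at day 30 (change 0.54, adjusted p = 0.139 by limma), and Scn3a changed by -0.23 (adjusted p = 0.524).

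In the calcium channel family 25 genes were measured, 18 of them at background on all 4 arrays. The L-type pore gene Cacna1d, known from the sinus node and the atria, was among these, at 4.67 to 5.15. The beta subunit gene Cacnb1 changed by -0.34 (adjusted p = 0.444 by limma), Cacng7 by -0.40 (adjusted p = 0.294) and Cacna2d2 by 0.20 (adjusted p = 0.645), none of them called. Cacng7 was lower after Tbx6 on both days, with 6.54 for PBS and 5.87 for Tbx6 at day 7, and with 6.43 for PBS and a reading at background (5.19) for Tbx6 at day 30. Its estimate for injection was -0.95 (unadjusted p = 0.00578, adjusted p = 1 by limma), the lowest unadjusted p among the channel subunits tested.

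Genes of proteins that bind or regulate sodium channels were measured for 11 of 12 listed. Of the 9 past the filter 3 rose and 1 fell, beside 14.2% and 12.1% of all genes tested. Rangrf, which encodes MOG1, a carrier of the cardiac sodium channel to the membrane, rose by 1.76 (SE 0.31, adjusted p = 0.00446 by limma), from 7.82 and 8.81 at day 7 to 10.12 and 10.02 at day 30. Gpd1l, a glycerol phosphate dehydrogenase that affects sodium current, rose by 1.29 (adjusted p = 0.0128). The fibroblast growth factor homologues, which bind the tail of sodium channels inside the cell, moved in opposite directions. Fgf13 read 6.86 and 6.58 at day 7 and 7.83 and 7.92 at day 30, a rise of 1.16 (SE 0.25, adjusted p = 0.0113), while Fgf12 read 10.80 and 10.82 at day 7 and 9.11 and 9.35 at day 30, a fall by 1.58 (SE 0.24, adjusted p = 0.00252). The median change of the 9 genes was 0.55, against -0.02 over all genes. Without the Tbx6 array of day 30, 1 rose (Rangrf) and 1 fell (Fgf12).

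Of 12 measured genes whose products bind or regulate L-type channels, 8 passed the filter. Beside 14.2% and 12.1% of all genes tested, 0 of these rose and 2 fell. Both were calmodulin genes, whose shared protein closes the channel when calcium enters. Calm3 fell by 1.41 (SE 0.24, adjusted p = 0.00435 by limma) and Calm2 fell by 1.27 (SE 0.25, adjusted p = 0.00706), each with no overlap between days. The call for Calm2 was lost without the Tbx6 array of day 30. Rrad, a small GTPase that holds back the L-type channel, was higher after Tbx6 on both days, with 11.54 for PBS and 12.44 for Tbx6 at day 7, and 12.11 and 12.56 at day 30. Its estimate for injection was 0.68 (unadjusted p = 0.0273, adjusted p = 1 by limma). The dyad scaffold genes Jph2 and Bin1, which hold the L-type channel beside the calcium store, changed by -0.28 and -0.02 and were not called (adjusted p of 0.432 and 0.961).

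Of 6 measured partners of HCN channels 4 passed the filter. Beside 14.2% and 12.1% of all genes tested, 0 of these rose and 1 fell. This was Nedd4, a ubiquitin ligase, with a change of -0.80 (adjusted p = 0.0421 by limma), a call that was lost when any 1 array was left out. The brain partner Pex5l and the potassium channel subunit Kcne2 were at background on all 4 arrays. The counts of the sodium and calcium channel families and of the sodium and calcium channel partners were the same without the PBS array of day 7.

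**Figure D4:**
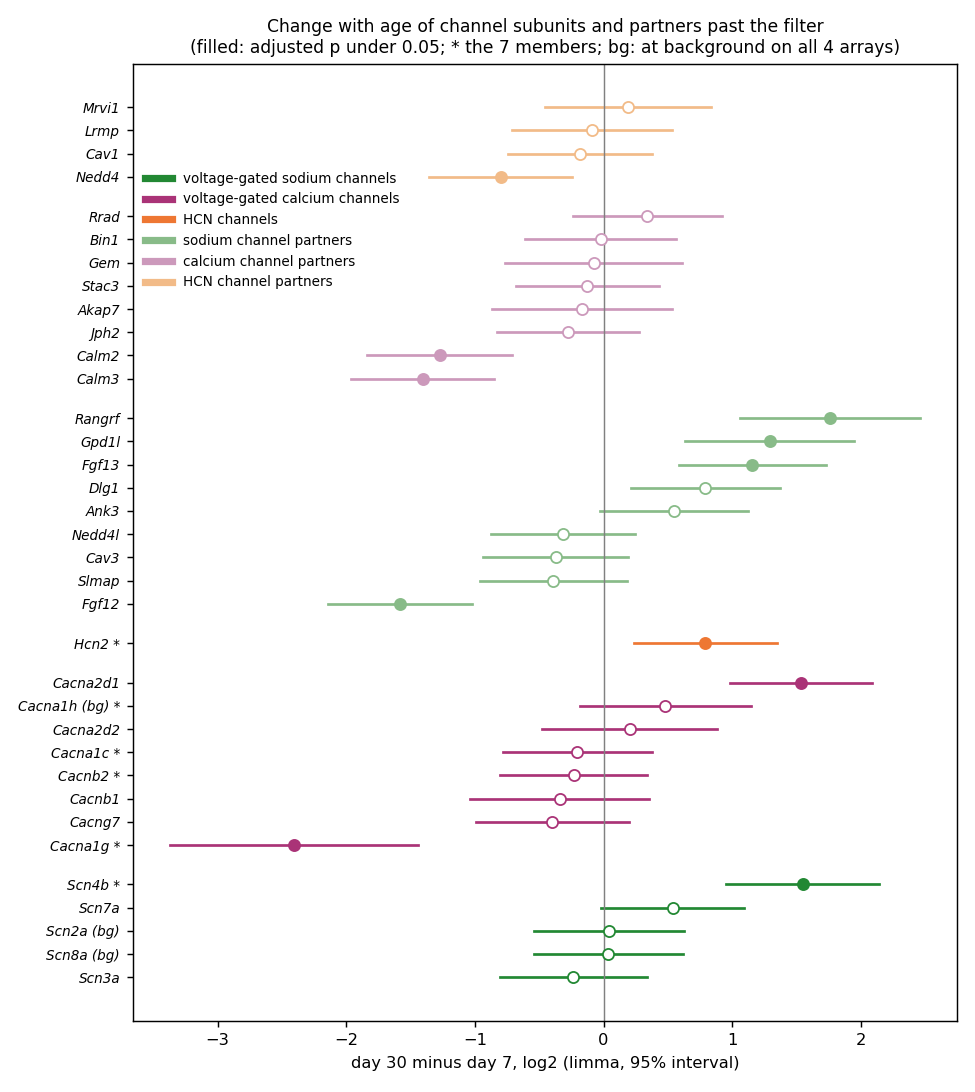
Change between day 7 and day 30 (horizontal axis, log2, with 95% intervals from limma) for every channel subunit and partner past the filter on low values, grouped by family, with filled points for an adjusted p under 0.05. Scn4b, Hcn2, Cacna2d1, Rangrf, Gpd1l and Fgf13 lie to the right, Cacna1g, Fgf12, Calm2, Calm3 and Nedd4 to the left.

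Genes of the conduction system were measured for all 23 listed, of which 9 were at background on all 4 arrays. Of the 15 past the filter 1 rose and 5 fell, beside 14.2% and 12.1% of all genes tested. The one that rose was Smoc2 (log2 change 0.84, adjusted p = 0.0378 by limma), which was at background on 3 of 4 arrays and lost its call with readings raised to background. Gja5, the connexin of atria and of the conduction system, fell by 1.82 (SE 0.24, adjusted p = 0.00126 by limma), from 8.56 and 8.25 at day 7 to 6.83 and 6.35 at day 30. Id2 (log2 change -1.53), Gjc1 (-1.29), a connexin of the nodes, and Etv1 (-1.11), a factor of fast-conducting muscle, also fell. The call of Etv1 was lost without the PBS array of day 30, and that of Gjc1 without the Tbx6 array of day 30. Rest, a repressor known to hold down Hcn2, Hcn4 and Cacna1h in the heart, read 8.81 and 9.15 at day 7 after PBS and Tbx6 and 7.61 and 7.74 at day 30, and fell by 1.30 (SE 0.24, adjusted p = 0.00609 by limma). The median change of the 15 was -0.21.

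Markers of other cell types moved with day on the same arrays, where 14.2% of all genes tested rose and 12.1% fell. Of the fibroblast markers 4 of 5 fell, with Col1a1 at -3.57 and Col3a1 at -3.32, and the mean log2 level of the list was 14.75 and 14.79 at day 7 and 12.76 and 12.91 at day 30. Of the endothelial markers 2 of 6 fell (Kdr by 1.03 and Cdh5 by 0.91), with a mean of 12.89 and 12.72 at day 7 and 12.01 and 12.10 at day 30, and neither was called when 1 array of day 30 was left out. With day as the only term 3 of 6 fell. With readings raised to background 5 of 6 were called as falling (Pecam1, Cdh5, Kdr, Tek and Tie1), although every reading of this list was above background. Their log2 changes stayed the same, and only the variance that limma takes from all genes differed. Of 10 cardiomyocyte markers 0 rose and 1, Nppb, fell (-1.08), though several of these are near the top of the scale, where differences are compressed. Of 8 atrial markers Sln rose by 0.87 and Myl7 fell by 0.78, and of 6 smooth muscle markers Des, also a heart muscle gene, rose (adjusted p = 0.0198 by limma). The calls of Nppb, Sln and Des were lost under quantile normalisation, and those of Nppb and Myl7 with day as the only term on all 4 arrays. Those of Lum, Cdh5 and Sln held in that model and were lost in it without the PBS array of day 7. The days of Nppb overlapped, and its lowest reading was on the Tbx6 array of day 30 (8.62). Of 8 neuronal markers 7 were at background on all 4 arrays, with Stmn2 at 6.95 to 7.21 the exception, and all 6 skeletal muscle markers were at background throughout. Of the 4 adipocyte and 3 lung epithelial markers tested none was called for day on the deposited values with all 4 arrays. With readings raised to background, Adipoq was called as rising and Ucp1, Scgb1a1 and Scgb3a1 as falling. All 4 readings of Adipoq were above background, so its log2 change (1.63) was not altered, and its days overlapped. Without the Tbx6 array of day 7 the lung markers Scgb1a1, Scgb3a1 and Cyp2f2 and the fat marker Ucp1 were called as falling, and Adipoq was called as rising when either PBS array was left out. The part of the fibroblast and endothelial shifts in the results for channel and conduction system genes was not tested.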

How the data were processed

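Heart RNA of 4 groups was measured on 1 mouse Clariom S array each. The authors ran SST-RMA in Affymetrix Expression Console 1.4, per the labels. The deposited values were read as log2, a base inferred from their range. The sources used here name no genome build or annotation version. The table held 28846 probe sets, of which 19572 carried 1 gene symbol and 0 several, 2634 had no symbol in the platform annotation used here and 6640 were controls. For 55 genes with several probe sets the one with the highest mean was kept. Entrez identifiers of all 19572 were found in the RefSeq table (GRCm38.p6). One listed partner was matched by synonym (Irag1 as Mrvi1), and listed genes without a probe set are not analysed here.

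Genes whose mean reached 5.30, the median gene mean, were fitted with limma 3.58.1 in R 4.3.3 (lmFit, eBayes, two-sided, Benjamini-Hochberg), with day and injection as terms. Precision is limited by the number of arrays. On simulated data for day, 76% of 1-unit and 100% of 2-unit log2 changes were recovered among 9753 genes, with 17 unchanged genes called. For injection these were 65%, 100% and 21. The simulated noise was Gaussian with the fit's own variances, without a background floor or an injection effect that changes with day. Only a small share of genes was changed, whereas the real test called 26.3% for day. The figures therefore check the fit and are not the recovery or false-call rate on these arrays. Named genes were all 7 members, up to 4 genes of each channel list by day change, from each marker list the highest and those differing most between injections, and the 3 most similar profiles of each member. Genes outside this rule (Shox2, Isl1, Tbx3, Hcn3, Cacna1d, Etv1, Rrad, Jph2, Bin1, Pex5l, Kcne2 and the markers called for day among them) were picked for their known roles or after their values were seen. The members and lists were chosen with earlier results of these data known. Tables and plots used Python 3.11.15, numpy 2.4.6, pandas 2.3.3 and matplotlib 3.10.9. Alternatives were quantile normalisation, other filters, raised readings, an intensity trend, day as the only term, leaving out each array and a 2-fold size rule.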

Additional observations from a re-analysis of the deposited data

Results flagged for a closer look

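Of the 6 adipocyte markers, 3 (Adipoq, Ucp1 and Cidec) differed between injections by at least 1.5-fold in opposite directions on the 2 days. This difference between days was not tested. Fabp4, the highest of the list, read 17.10 and 17.06 at day 7 after PBS and Tbx6, and 16.46 and 16.70 at day 30. Plin1 and Lep were at background on all 4 arrays. Adipoq differed by -1.91 at day 7 and by 2.33 at day 30. Ucp1 differed by -4.32 at day 7 and by at least 2.29 at day 30. Cidec, a lipid droplet gene, differed by -0.96 at day 7 and by at least 1.83 at day 30. None of the 7 channel genes did so with readings above background.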

How the results depend on the processing

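No paired analysis was possible because each group has 1 array and the labels give no replicate numbers. Of the 3 channel genes called for day, all kept their direction under every setting tried. With readings raised to background, Scn4b changed by 0.59 (adjusted p = 0.0667). Hcn2 changed by 0.79 without the filter and with the intensity trend (adjusted p of 0.0803 and 0.0502). Leaving out each array in turn gave 1.33 to 1.77 for Scn4b, 0.69 to 0.90 for Hcn2 and -3.32 to -1.49 for Cacna1g. The call was lost for Hcn2 in all 4 cases and for Cacna1g in 2, while Scn4b, with its day 7 readings at background, kept it. Fits with 3 arrays assume that the lone array of a day varies like the others. Among the genes not called, the single-array change of Cacna1c after PBS went from 0.01 to -0.31 under quantile normalisation. Leaving out each array gave -0.4118 to 0.0071 for Cacna1c, above 0 without the Tbx6 array of day 7, and -0.5197 to 0.0538 for Cacnb2, above 0 without the Tbx6 array of day 30. With readings raised, the estimates for injection were -0.069 for Scn4b, -0.13 for Cacna1h and -0.955 for Cacna1g. For Cacna1g the unadjusted p was then 0.00376 and the adjusted p 0.495 by limma, so it was still not called. Its single-array differences in that setting were -1.83 at day 7 and -0.08 at day 30.

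Over all genes, the counts that rose and fell with day (1385 and 1177) were 1365 and 1184 with day as the only term. In that model, which all fits with an array left out use, they were 693 and 555 without the Tbx6 array of day 30, and 781 and 621 without the PBS array of day 30. They ranged from 693 to 1114 and from 555 to 981 over the 4 arrays left out. With readings raised, 2 genes were called higher after Tbx6 in place of 0. With a 2-fold size rule, the genes higher and lower with Tbx6 numbered 132 and 144 on the first day, and 109 and 100 on the second. With that rule 1057 were higher and 945 lower at day 30 after PBS, and 1183 and 930 after Tbx6. No member had a second probe set, so that alternative was not run. Signal over background limits Scn4b, Cacna1g at day 30, Hcn4 and Cacna1h.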
